A study of Mus musculus with 2 samples.

Results

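Mast cells rich in histone RNA made up 1677 of the 24344 mast cells in the library, or 6.89% (95% interval 6.57–7.21). They were chosen in steps from 34813 cell barcodes. A barcode was kept with 500 or more detected genes, 1000 or more gene UMIs (unique molecular identifiers, each marking 1 captured RNA molecule) and no more than 10% of them mitochondrial, which left 33964. It was counted as a mast cell where Cpa3 and Cma1 together gave 1.5% or more of its gene UMIs, C1qa, C1qb and C1qc under 0.1%, and Col1a1, Col1a2, Col3a1 and Dcn under 0.2%. A mast cell was then counted as histone-high where Hist1h1b, Hist1h2ap and Hist1h2ae together reached 1500 CPM (UMIs per 1000000 gene UMIs of the cell). The working name of these cells was mast cells in S phase. The larger of an S phase and a G2/M score, neither using a clustered histone gene, placed 24.2% of them in S phase and 74.5% in G2/M. The median of each score was positive in these cells, so some of those placed in G2/M also scored positive for S. The cells are therefore called histone-high mast cells here, and the 22667 that missed the threshold are called the other mast cells.

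A cell that copies its DNA must make histones at the same time. The genes for these histones lie in clusters, carry no introns and are transcribed mainly in S phase. Their RNAs end in a conserved stem-loop bound by the protein Slbp in place of a poly(A) tail, and they are broken down when replication ends. Mast cells are tissue cells that store proteases, heparin and histamine in granules and release them through the IgE receptor, and immature mast cells can divide under Kit ligand and interleukin 3.

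The cells came from colonies of the type called colony-forming unit macrophage (CFU-M), grown from dorsal aorta of 2 male C57BL/6J mice of 12 weeks. Aortic cells were released with an enzyme, plated in methylcellulose, a semi-solid medium, and left for 14 days, after which colonies were isolated and viable cells sorted and tagged by MULTI-seq, in which a lipid anchors a DNA oligonucleotide to each cell so that suspensions can be pooled. The series title sets the work in a search for progenitors of endothelial cells and macrophages in the aorta. Cells of both mice shared 1 library with no label that separates the animals, and the comparison is between cells of that library.

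The library and its labels differ in 2 respects that touch every result below. Tags of 3 suspensions, named Cafum, Matrigel and Macrophages, are in the matrix, and the labels do not say what they hold. Xist, the RNA of the inactive X chromosome in females, was at 339.9 CPM of summed UMIs in histone-high and 397.8 CPM in the other mast cells, although the labels name male mice, and the Y-linked Ddx3y was at 17.1 and 19.3 CPM. No result could be given without the library concerned, since there is 1. For the same reason no difference below has a replicate check or a p-value: cells of 1 library are not replicates. Intervals are exact at 95% (Poisson for CPM of summed UMIs, Clopper-Pearson for shares of cells) and cover counting error only.

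The histone value used by the rule ran from 1500.12 to 13084.5 CPM in the histone-high cells, with a median of 3909 and quartiles of 2670 and 5503. In the other mast cells its median was 103 CPM, and 33.8% of them had no UMI of the 3 genes. These values chose the cells and are given as a description. The 135 cells nearest under the threshold had Pclaf at 495.6, Dut at 262.8 and Top2a at 545 CPM, and the 91 nearest above it had them at 565.7, 278.6 and 595.5 CPM. Near the threshold lay a shallow trough and no gap, as the histogram of the histone value shows: bars of equal width on the log axis held 82 cells just under the threshold, 76 just above it, 67 in the next and up to 149 further on. Pclaf, a partner of the replication clamp, and Dut, the enzyme that removes dUTP, were given as markers beside the histones. Pclaf was at 908 CPM (899–917) in histone-high and 74.5 CPM (73.5–75.4) in the other mast cells, and Dut at 377 and 71.2 CPM.

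**Figure D1:**
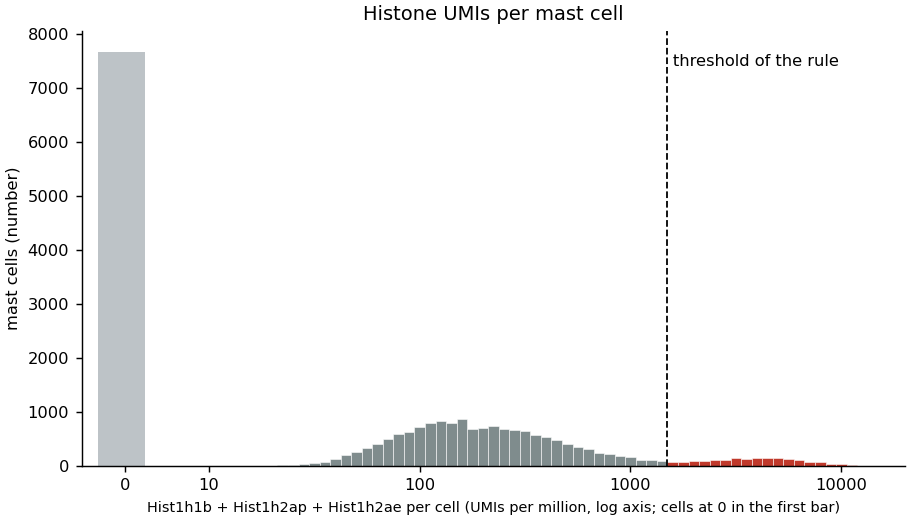
Number of mast cells (vertical axis) by summed UMIs of Hist1h1b, Hist1h2ap and Hist1h2ae in CPM of the cell (horizontal log axis, cells at 0 in the first bar). The dashed line is the threshold of 1500 CPM, and the red bars to its right are the 1677 histone-high cells.

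The histone-high cells also had more RNA captured. Their median was 24063 UMIs and 4901 genes per cell, against 11315 UMIs and 3233 genes in the other mast cells, while mitochondrial genes gave medians of 1.98% and 2.14% of UMIs. The share of mast cells that were histone-high was 0.694% (0.527–0.896) among cells of 5000 to 10000 UMIs and 35.6% (32.9–38.3) among cells of 30000 to 50000. Thinned to 6000 UMIs per cell, the medians were 2291.5 genes in 1662 histone-high and 2231 in 20657 other mast cells, with 15 and 2010 cells too shallow to thin. Scrublet, which scores barcodes against simulated doublets, called 12.0% (10.5–13.6) of the histone-high and 7.26% (6.923–7.603) of the other mast cells. The expected doublet rate set for Scrublet was 27.9%, while 9.32% of all barcodes were called, so uncalled doublets may remain in both groups. Called doublets were kept in the sums. The part of depth and doublets in the results was not tested beyond the alternative settings given at the end.

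Clustered histone genes, the 3 of the rule among them, were high in these cells. Of 67 clustered histone genes in the matrix, 27 reached 10 CPM over all mast cells, and 25 of these were at least 1.5 times higher in histone-high than in the other mast cells, 0 were at least 1.5 times lower, and the median ratio was 12.2. Of the 27, 10 were under 10 CPM in the other mast cells and passed the minimum through the histone-high cells. Over all 7639 genes at 10 CPM or more, 10.7% were at least 1.5 times higher and 11.4% at least 1.5 times lower, and the median ratio was 0.943. The rule used histone RNA of the same cells, so nothing is read from the histone count. Outside the 3 rule genes, 22 of 24 were at least 1.5 times higher, with a median ratio of 11.1. Together the 67 genes gave 0.966% of the UMIs of histone-high cells and 0.0974% of those of the others.

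Each histone class was higher in the histone-high cells also without the rule genes, which are left out of the sums here. Summed H2A genes other than Hist1h2ap and Hist1h2ae were at 1257 against 95.97 CPM, H3 genes at 1027 against 51.0 CPM, H4 genes at 1225 against 126.9 CPM and H2B genes at 861 against 186 CPM, all of them parts of the nucleosome core. Genes of the linker histone H1, which binds where DNA enters and leaves the core, were at 1094 against 328.6 CPM without Hist1h1b, a ratio of 3.33. With the rule genes the H2A sum was at 3704 against 215.5 CPM and the H1 sum at 2839 against 394.6 CPM.

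The size of the difference varied widely from gene to gene, as the plot of histone ratios shows. The H2A gene Hist1h2af was at 116 CPM in histone-high and 1.55 CPM in the other mast cells, a ratio of 74.98 (68.2–82.6). The H3 gene Hist1h3c was at 413 and 6.04 CPM, a ratio of 68.3 (65.1–71.7), and the H2A gene Hist1h2ab at 385 and 6.09 CPM, a ratio of 63.2 (60.2–66.4). All 3 were at under 10 CPM in the other mast cells, so their ratios rest on low levels there. The H4 gene Hist1h4d was at 778 and 63.3 CPM, a ratio of 12.3. The rule's own genes, Hist1h1b, Hist1h2ae and Hist1h2ap, had ratios of 26.5, 22.2 and 19.5. The exceptions were Hist1h1c, an H1 gene, at 132 and 117 CPM with a ratio of 1.13 (1.10–1.16), and Hist1h2bc, an H2B gene, at 101 and 117 CPM with a ratio of 0.863 (0.835–0.891). Neither was past 1.5 times.

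**Figure D2:**
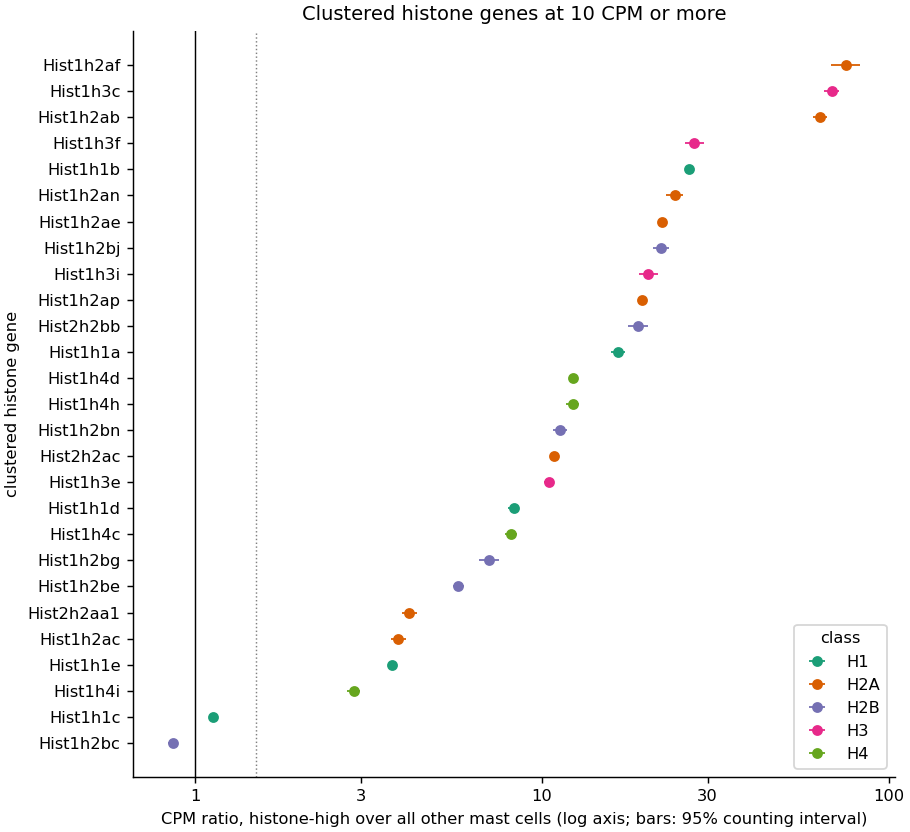
Ratio of CPM, histone-high over other mast cells (horizontal log axis), for the 27 clustered histone genes at 10 CPM or more, coloured by histone class, with bars for the 95% counting interval. Hist1h2af is highest at 74.98, and Hist1h1c and Hist1h2bc lie near 1.

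The kit captures RNA by its poly(A) tail, and the stem-loop ends of histone RNAs are shown here because they are the feature on which histone RNAs differ from other messenger RNAs. In the GENCODE vM21 transcripts (GRCm38), a stem-loop of 16 bases was found in 46 of the 67 genes. The sequences are given 5′ to 3′, with the loop in capitals between the paired arms.
Hist1h2ap: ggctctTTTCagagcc
Hist1h3c: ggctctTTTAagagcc
Hist1h4d: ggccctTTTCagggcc
Hist1h1c: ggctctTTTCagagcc
The first ended 3 bases before the annotated transcript end, the second 74 bases, the third 770 bases and the last 840 bases. Hist1h2ap and Hist1h1c thus hold the same 16 letters while their ratios, given above, were 19.5 and 1.13. Among tested genes, 9 with fewer than 200 annotated bases after the loop had a median ratio of 19.5, from 4.15 to 68.3, with the rule genes Hist1h2ap and Hist1h2ae among them. The 10 with 200 or more had a median of 6.94, from 1.13 to 27.5, and the 8 in which no stem-loop was found had a median of 19.6, from 0.863 to 74.98. Some of these 8 have short annotated transcripts, such as 381 bases for Hist1h2bn and 411 for Hist1h3i, while Hist1h2bc has 1156. A loop past the annotated end could not be found, so these 8 are not shown to lack one. Which ends the captured molecules had was not tested. Of the 27 tested genes, 9 shared 50% or more of their 50-base stretches with another clustered histone gene, up to 93.1% for Hist1h2ap, so counts of single H2A, H2B and H3 genes may be split between copies and are uncertain. Hist1h1b shared none.

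Promoters are shown for 5 genes picked as examples: 2 histone genes with high ratios, a histone gene with a ratio near 1, a replication gene and a mitotic gene. Each is the 250 bases before a RefSeq transcript start (GRCm38.p6), read 5′ to 3′ on the gene's strand, with motif matches in capitals. The motifs were searched on both strands. An E2F-like site was any of 4 spellings: TTTGGCG, or read as TTTCCCG, or read as TTTCGCG, or read as TTTGCCG. The promoter box CCAAT and the TATA box TATAAA were searched next to the cell cycle homology region or CHR, spelled TTTGAA. The octamer ATTTGCAT and the box AAACACA are known from histone promoters, the latter from H1 genes. Hist1h1b lies at chr13:21780626-21780875 (minus strand), Hist1h2ab at chr13:23750838-23751087 (plus), Hist1h1c at chr13:23738557-23738806 (plus), Mcm7 at chr5:138171884-138172133 (minus, 1 of 2 RefSeq starts) and Top2a at chr11:99024190-99024439 (minus).
Hist1h1b: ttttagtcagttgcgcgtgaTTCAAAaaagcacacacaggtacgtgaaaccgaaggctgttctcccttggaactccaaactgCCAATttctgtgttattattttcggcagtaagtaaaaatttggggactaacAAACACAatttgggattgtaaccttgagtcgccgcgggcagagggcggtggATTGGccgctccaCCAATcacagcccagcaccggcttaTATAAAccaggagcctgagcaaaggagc
Hist1h2ab: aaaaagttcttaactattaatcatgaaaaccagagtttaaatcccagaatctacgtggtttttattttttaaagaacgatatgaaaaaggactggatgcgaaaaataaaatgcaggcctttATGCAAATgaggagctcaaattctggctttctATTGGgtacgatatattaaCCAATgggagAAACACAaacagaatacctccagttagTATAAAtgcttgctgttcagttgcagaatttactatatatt
Hist1h1c: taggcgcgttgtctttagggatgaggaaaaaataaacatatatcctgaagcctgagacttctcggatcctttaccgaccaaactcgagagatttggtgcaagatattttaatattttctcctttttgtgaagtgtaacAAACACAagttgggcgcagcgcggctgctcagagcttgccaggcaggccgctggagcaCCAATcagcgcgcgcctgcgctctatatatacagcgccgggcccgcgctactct
Mcm7: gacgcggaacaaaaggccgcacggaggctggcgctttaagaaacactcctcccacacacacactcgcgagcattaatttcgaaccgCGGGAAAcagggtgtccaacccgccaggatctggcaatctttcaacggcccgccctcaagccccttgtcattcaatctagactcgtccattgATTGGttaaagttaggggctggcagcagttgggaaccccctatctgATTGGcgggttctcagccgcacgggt
Top2a: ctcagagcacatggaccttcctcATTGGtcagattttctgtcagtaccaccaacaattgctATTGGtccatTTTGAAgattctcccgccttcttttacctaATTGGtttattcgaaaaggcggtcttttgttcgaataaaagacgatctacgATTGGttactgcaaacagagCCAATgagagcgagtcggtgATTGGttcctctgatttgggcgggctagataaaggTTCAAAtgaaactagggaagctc
In Hist1h1b, TATAAA stood 28 bases before the start, CCAAT or its complement at 168, 66 and 53 bases, and AAACACA at 117 bases. Hist1h2ab had TATAAA at 41 bases, CCAAT matches at 97 and 78 bases, the octamer at 129 bases and AAACACA at 68 bases, although it is an H2A gene. Hist1h1c had CCAAT at 54 bases, AAACACA at 112 bases and no TATAAA in the window. Other TATA spellings were not searched, and the printed Hist1h1c sequence holds a run of alternating T and A near its end. Hist1h1c is thus not shown to lack a TATA box. Mcm7 had an E2F-like match at 164 bases, and Top2a had 6 CCAAT matches and CHR matches at 179 and 23 bases. The window of the other Mcm7 start held no E2F-like match, nor did those of Rrm2, Dut and Tk1. Pclaf and Mcm3 had E2F-like matches across or after the start.

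Over windows of 300 bases (250 before to 50 after the start), the gene groups that were high in these cells differed in motif shares, with overlap. Of the 27 tested histone genes, 25 were matched to RefSeq, with 26 windows. CCAAT was in 92.3% of these windows against 37.4% of all 32851 windows, TATAAA in 57.7% against 13.6%, and the octamer in 26.9% against 1.74%. For the replication lists described next, with 52 of 61 genes matched and 61 windows, the E2F-like site was in 39.3% of windows against 6.70% of all windows, and TATAAA in 3.28%. For the G2 and mitosis list, with 26 of 29 genes matched and 26 windows, CCAAT was in 80.8% and CHR in 65.4% against 17.9% of all windows. The groups also shared motifs above the level of all windows. CHR was in 42.3% of the histone windows, and CCAAT in 49.2% of the replication windows. The E2F-like site was in 15.4% of the histone windows and 23.1% of the G2 and mitosis windows. These are matches of letters, given as a description.

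Genes that copy DNA were higher in the histone-high cells as a group. In 4 lists of replication genes, 53 of 61 genes at 10 CPM or more were at least 1.5 times higher and 1 was at least 1.5 times lower, with a median ratio of 2.76 against 0.943 over all genes and a background of 10.7% higher. Of the 61, 9 were under 10 CPM in the other mast cells. The lists were named for their roles, and the plot of list ratios shows each gene. The background of all genes, 10.7% higher and 11.4% lower, applies to each list below. S phase genes are known to be expressed together with histones, so the direction was known from how the cells were chosen.

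**Figure D3:**
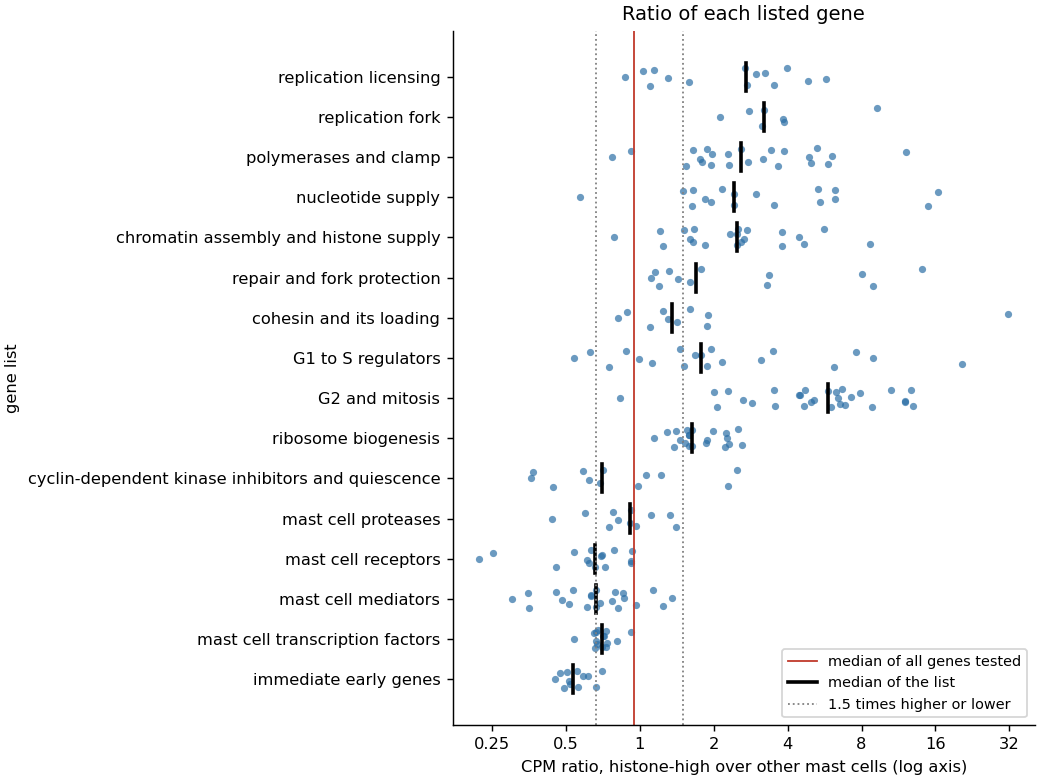
Ratio of CPM, histone-high over other mast cells (log axis), for each gene at 10 CPM or more in the named gene lists, with a bar for the median of each list, a red line for the median of all genes and dotted lines at 1.5 times. Replication and mitosis lists lie mostly above 1, and the mast cell and immediate early lists mostly below 1.

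Licensing genes, which load the Mcm helicase on DNA before S phase, had the smallest share past 1.5 times of the 4 lists. Of 14, 9 were at least 1.5 times higher and 0 lower, with a median ratio of 2.72 and summed levels of 1065 against 407 CPM. The helicase subunit gene Mcm7 was at 102 and 17.9 CPM, a ratio of 5.73 (5.503–5.965), and Mcm5 at 46.4 and 11.7 CPM, a ratio of 3.97. Gmnn, whose product blocks a second round of licensing, was at 196 and 40.5 CPM, a ratio of 4.84. Cdc6, which helps to load the helicase, was at 20.2 and 18.4 CPM, and Orc4, a subunit of the origin recognition complex, at 33.5 and 38.6 CPM. For neither did the levels differ by 1.5 times.

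Fork genes, which work where the helix is open, were at least 1.5 times higher in 7 of 7, with a median ratio of 3.22. Of the 7, 1 was under 10 CPM in the other mast cells and passed the minimum through the histone-high cells. Clspn, which relays stalled-fork signals, was at 140 and 15.2 CPM, a ratio of 9.23 (8.88–9.59), and Tipin, which holds the fork together, at 138 and 35.7 CPM. For polymerases and clamp genes, 21 of 23 were at least 1.5 times higher and 0 lower, with a median ratio of 2.58. Of the 23, 5 were under 10 CPM in the other mast cells and passed in the same way, Fen1 among them. Pcna, the clamp itself, was at 229 and 83.0 CPM, a ratio of 2.76. Lig1, the ligase that joins Okazaki fragments, was at 149 and 24.4 CPM, a ratio of 6.09, and Fen1, which trims their flaps, at 44.7 and 8.48 CPM, a ratio of 5.27. Pclaf, named above, is in this list and had its highest ratio, 12.2.

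Genes that supply nucleotides were at least 1.5 times higher in 16 of 17, with a median ratio of 2.43. Of the 17, 3 were under 10 CPM in the other mast cells and passed the minimum through the histone-high cells. Tk1 and Rrm2 are among these 3. Tk1, thymidine kinase, was at 63.0 CPM (60.6–65.5) in histone-high and 3.83 CPM (3.61–4.06) in the other mast cells, a ratio of 16.5. Rrm2, the subunit that makes ribonucleotide reductase active in S phase, was at 118 and 7.95 CPM, a ratio of 14.9 (14.2–15.6), while its partner Rrm1 was at 145 and 23.2 CPM, a ratio of 6.23. Tyms, thymidylate synthase, was at 110 and 17.6 CPM. The exception was Samhd1, which breaks down nucleotides, at 19.97 and 34.99 CPM, a ratio of 0.571 (0.531–0.612).

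Genes that put histones on new DNA or act on histone RNA were at least 1.5 times higher in 18 of 21, with a median ratio of 2.49. Of the 21, 2 were under 10 CPM in the other mast cells and passed the minimum through the histone-high cells, Uhrf1 among them. The chaperone gene Asf1b was at 111 and 12.9 CPM, a ratio of 8.62, and Uhrf1, which carries DNA methylation to the new strand, at 55.7 and 9.87 CPM. Slbp, which binds the histone stem-loop, was at 143 and 61.4 CPM, a ratio of 2.33 (2.262–2.398). Among variant histones, whose genes lie outside the clusters, 6 of 9 were at least 1.5 times higher with a median ratio of 1.64. H2afx, which marks DNA breaks, was at 176 and 25.8 CPM, and H2afz at 4030 and 1741 CPM.

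In the repair and cohesin lists, 3 of 12 and 1 of 10 genes were under 10 CPM in the other mast cells and passed the minimum through the histone-high cells, Rad51ap1 and Esco2 among them. For repair and fork protection, 7 of 12 were at least 1.5 times higher, among them Rad51ap1, a gene of repair by recombination, at 107 and 7.54 CPM with a ratio of 14.2 (13.5–14.9). For cohesin and its loading, 4 of 10 were at least 1.5 times higher and the median ratio was 1.36. One of them, Esco2, the acetyltransferase that locks cohesin on sister chromatids during S phase, had the highest ratio of any tested gene outside the histone clusters. Its level was 133 CPM (130–137) in histone-high and 4.22 CPM (3.99–4.46) in the other mast cells, a ratio of 31.6 (29.8–33.6). The 15 highest ratios outside the clusters were, in order, those of Esco2, Pbk, Fbxo5, Neil3, Tk1, Rrm2, Kif15, Rad51ap1, Ska1, Kif11, Shcbp1, Aurkb, Pclaf, Top2a and Nusap1, the last at 12.1. Of these 15, 11 were under 10 CPM in the other mast cells and passed the minimum through the histone-high cells. They include S phase enzymes, kinesins and spindle genes.

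Of 19 regulators of entry into S phase, 12 were at least 1.5 times higher and 2 at least 1.5 times lower, where 10.7% and 11.4% of all genes were. Of the 19, 2 were under 10 CPM in the other mast cells and passed the minimum through the histone-high cells. They are Ccne2 and Fbxo5. Ccne2, a cyclin E, was at 68.4 and 9.01 CPM, a ratio of 7.59 (7.201–8.003). Fbxo5, which holds back the anaphase-promoting complex in S phase, was at 118 and 5.74 CPM, a ratio of 20.5. The cyclin D gene Ccnd2, which acts in G1, was at 161 and 298 CPM, a ratio of 0.540 (0.527–0.554), and Ccnd3 had a ratio of 0.628, while Cdk4, the kinase partner of D cyclins, was at 160 and 81.7 CPM, a ratio of 1.96. Among 12 genes of cyclin-dependent kinase inhibitors and quiescence, 2 were at least 1.5 times higher (Cdkn2c at 2.49 and Cdkn2d at 2.28) and 5 lower. Btg1, an antiproliferative gene, was at 268 and 725 CPM, a ratio of 0.369 (0.362–0.376), and Klf2, Txnip and Cdkn1b had ratios of 0.360, 0.443 and 0.619.

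Genes of G2 and mitosis were higher by more than the replication genes. Of 29, 28 were at least 1.5 times higher and 0 lower, with a median ratio of 5.86 and summed levels of 6205 against 1303 CPM. Of the 29, 6 were under 10 CPM in the other mast cells. Top2a, which untangles DNA, was at 957 CPM (948–967) and 79.3 CPM (78.3–80.3), a ratio of 12.1. Mki67, which coats mitotic chromosomes, was at 455 and 57.5 CPM, a ratio of 7.91, and Kif11, the motor that separates spindle poles, at 192 and 14.8 CPM, a ratio of 13.0. Cdk1, the mitotic kinase, was at 127 and 14.2 CPM, a ratio of 8.95. The exception was Pttg1, securin, at 36.0 and 43.4 CPM, a ratio of 0.829 (0.785–0.874).

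By the larger of the S and G2/M scores, over gene lists without clustered histones, most histone-high cells were placed in G2/M. Of 1662 cells thinned to 6000 UMIs, 402 (24.2%, 22.1–26.3) had S as the larger score above 0, 1238 (74.5%, 72.3–76.6) had G2/M, and 22 (1.32%) had neither. Of 20657 other mast cells, 6.52% were placed in S, 10.4% in G2/M and 83.0% in neither. The median S score was 0.140 in histone-high and −0.144 in the other mast cells, and the median G2/M score 0.393 and −0.115. Both medians were above 0 in the histone-high cells, so some cells placed in G2/M also scored above 0 for S. The placement gives the larger score and does not show that a cell is past S phase. In 162 histone-high cells (9.75%) both scores were within 0.05 of each other, against 45.7% of the other mast cells. The larger score was within 0.05 of 0 in 1.32% of histone-high and 12.5% of the other mast cells. The scores are ranges and not cell types, and the part of free RNA in droplets in them was not tested. Read the other way, histone-high cells were 23.0% of the mast cells scored S, 36.5% of those scored G2/M and 0.128% of those scored neither.

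To place these cells among other mast cells by score, 4 groups of thinnable cells were set side by side at their full depth. They were 1662 histone-high, 1347 others scored S, 2156 others scored G2/M and 17154 others scored neither. A score just above 0 was enough to be placed in S or G2/M, so these 2 groups may hold cells that do not divide. Their median UMIs were 24174, 19486, 18001.5 and 11121. The scores defined the last 3 groups, so genes of the S and G2/M score lists describe them and test nothing. Of all 7639 genes, 19.6% had their highest level in histone-high cells, 18.2% in others scored S, 25.3% in others scored G2/M and 36.9% in others scored neither.

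Most helicase genes had their highest level in the others scored S. These were 5 of the 6 genes Mcm2 to Mcm7, several of them in the S score list, while Mcm7 was at 102 CPM in histone-high and 98.1 CPM in others scored S. The sum of Mcm2 to Mcm7 was 464 CPM (458–471) in histone-high, 620.5 CPM (611–630) in others scored S, 124 CPM in others scored G2/M and 82.5 CPM in others scored neither. Of 14 licensing genes, 4 were highest in histone-high and 9 in others scored S. Hells, a chromatin remodeller, was at 67.6 CPM in histone-high, 124 in others scored S, 10.7 in others scored G2/M and 6.66 in others scored neither, and Cdc6 at 20.2, 44.5, 13.1 and 16.4 CPM. Polymerase and clamp genes summed to 2932 CPM in histone-high, 2092 in others scored S, 1310 in others scored G2/M and 854 in others scored neither. Without Pclaf, a given marker of these cells at 909 and 198 CPM in the first 2 groups, the sums were 2024, 1895, 1014 and 836 CPM, and 7 of the 23 genes were highest in others scored S. Of all 61 replication genes, 36 were highest in histone-high and 20 in others scored S.

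Some genes were high in histone-high cells and low both in others scored S and in others scored G2/M. Esco2 was at 133 CPM (130–137) in histone-high, 13.7 in others scored S, 14.0 in others scored G2/M and 1.25 in others scored neither. Tk1 was at 63.1, 16.02, 10.4 and 1.14 CPM in the same order, and Rrm2 at 118, 37.1, 18.6 and 2.51 CPM. These are an S phase acetyltransferase and enzymes of nucleotide supply. Clustered histone genes outside the rule summed to 5466 CPM in histone-high, 745 in others scored S, 955 in others scored G2/M and 756 in others scored neither, and 23 of these 24 tested genes were highest in histone-high.

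**Figure D4:**
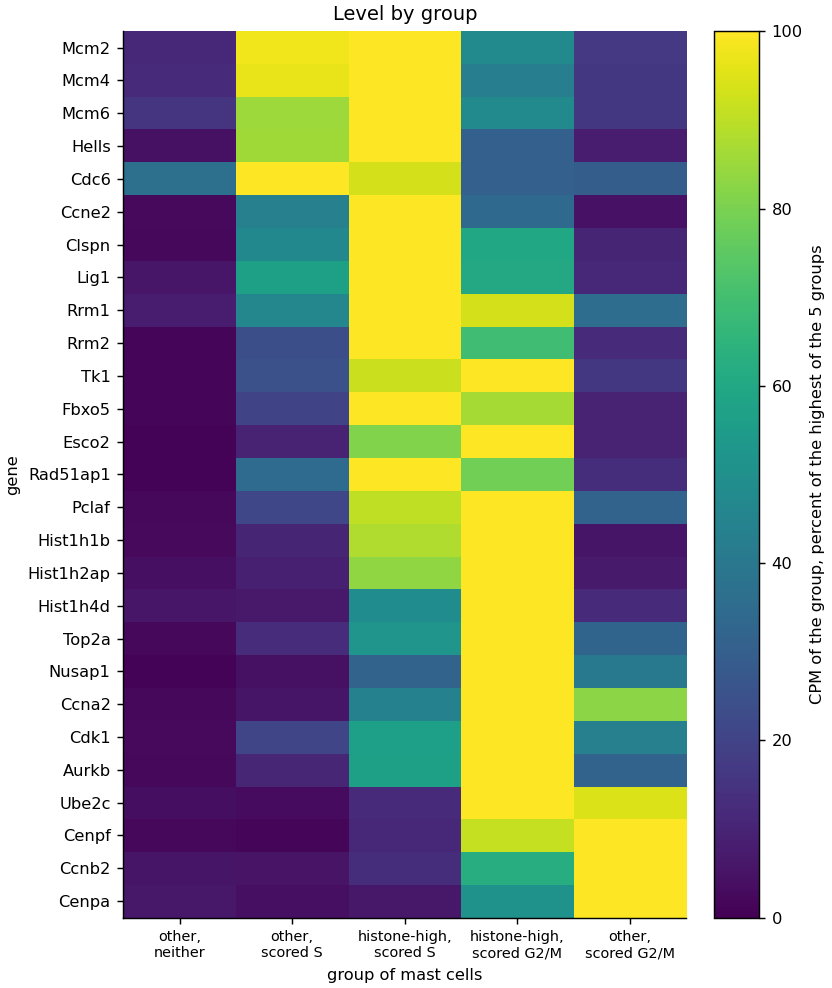
Level of named genes in 5 groups of mast cells (histone-high cells scored S, histone-high cells scored G2/M, and others scored S, G2/M or neither), as percent of the highest of the 5 in each row. Esco2 and Tk1 are high in both histone-high columns, while Cenpa is highest in others scored G2/M.

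Some genes of mitosis were higher in the others scored G2/M. Cenpa, the centromere histone, was at 195 CPM in histone-high, 19.2 in others scored S, 483 in others scored G2/M and 31.2 in others scored neither. Ccnb2, a cyclin B, was at 103, 10.6, 205 and 12.0 CPM, and Ube2c, an enzyme of cyclin destruction, at 303, 10.7, 365 and 14.8 CPM. Of 29 G2 and mitosis genes, 18 were highest in histone-high and 11 in others scored G2/M. Top2a was among the former, at 958, 138, 352 and 21.6 CPM.

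The histone-high cells were also split by score. The score lists hold Mcm genes, Ccne2 and Cenpf, and the rule fixed Hist1h1b high on both sides, so these values describe the split and test nothing. Mcm2 to Mcm7 summed to 741 CPM in the 402 cells scored S and 382 CPM in the 1238 scored G2/M. Ccne2 was at 139 and 47.3 CPM and Cenpf, a kinetochore gene, at 29.2 and 242 CPM. Esco2 was at 114 CPM in those scored S and 140 CPM in those scored G2/M, Tk1 at 59.5 and 64.7 CPM, and Hist1h1b, a rule gene, at 1588 and 1806 CPM. Across the 1662 thinned cells, the summed UMIs of licensing and of G2 and mitosis genes had a Spearman correlation of −0.31, and those of G2 and mitosis and of histones outside the rule 0.54. Licensing and histones were at −0.07. Cells are not independent replicates, and the sums share 1 library and 1 total per cell.

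Per cell, at 6000 UMIs, the histone-high cells had a median of 31 UMIs of histone genes outside the rule (5th to 95th percentile 11 to 64.95), against 4 (1 to 11) in the other mast cells. The medians for G2 and mitosis genes were 34 (10 to 77) and 3 (1 to 25), for polymerases and clamp 17 (8 to 29) and 5 (2 to 12), and for licensing genes 6 (1 to 13) and 2 (0 to 6). The ranges for licensing overlapped widely between the groups. Along the histone value, Mcm3, a helicase subunit, was at 24.0 CPM in cells with no UMI of the rule genes and 132 CPM in those at 6000 CPM or more, and the G2 and mitosis sum at 792 and 7393 CPM, as the plot of levels by histone value shows.

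The cells kept their mast cell genes at lower levels. Of 63 mast cell genes at 10 CPM or more, 0 were at least 1.5 times higher and 27 at least 1.5 times lower, with a median ratio of 0.703 against 0.943 over all genes and a background of 11.4% lower. These levels are shares of all gene UMIs, and histone-high cells had more UMIs, so a lower CPM does not show fewer molecules per cell. All 7 defining mast cell markers were present, at a sum of 38709 CPM against 52723 CPM, and the ratios of all 7 were below 1. Cpa3 and Cma1 were used to choose mast cells.

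Of the 4 mast cell lists, granule proteases had the median ratio closest to 1. Of 11, 2 were at least 1.5 times lower and the median ratio was 0.912. Chymase (Cma1) was at 16347.5 and 21894 CPM, carboxypeptidase (Cpa3) at 13957.5 and 17999.6 CPM, and the tryptase Tpsb2 at 3634 and 6095 CPM, a ratio of 0.596. Ctsg, cathepsin G, was the member with the highest ratio, at 464 and 329 CPM, a ratio of 1.41 (1.39–1.43). Per thinned cell the protease sum had a median of 271 UMIs (5th to 95th percentile 175 to 423.95) against 358 (215 to 548), so the groups overlapped.

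Receptors were at least 1.5 times lower in 8 of 15, with a median ratio of 0.660. Kit, the stem cell factor receptor, was at 862 CPM (853–871) and 1362 CPM (1358–1366), a ratio of 0.633, and Il1rl1, the interleukin 33 receptor, at 1324 and 2132 CPM, a ratio of 0.621. Mrgprb1 and Mrgprb2, of the family of receptors for cationic secretagogues, were at 35.6 and 160 CPM and at 15.4 and 61.2 CPM, ratios of 0.222 and 0.252. The IgE receptor chain Fcer1a was at 2975 and 3795 CPM, a ratio of 0.784.

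Mediator genes were at least 1.5 times lower in 12 of 22, with a median ratio of 0.662. Hdc, which makes histamine, was at 328 CPM (322–333) and 924 CPM (920–927), a ratio of 0.355 (0.349–0.361). The cytokine Il13 was at 10.3 and 34.1 CPM, and Csf1 and Il4 had ratios of 0.349 and 0.516. Tph1, which makes serotonin, had a ratio of 0.966. Mast cell transcription factors were at least 1.5 times lower in 5 of 15. Mitf was at 131 and 201 CPM, a ratio of 0.654, Bhlhe40 had a ratio of 0.540, and Gata2 was at 484 and 661 CPM, a ratio of 0.732.

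For most mast cell genes the other cells scored S or G2/M were also below those scored neither. Of 63 mast cell genes, 49 were highest in others scored neither, where 36.9% of all genes were highest. Hdc was at 327 CPM in histone-high, 504 in others scored S, 422 in others scored G2/M and 1050 in others scored neither. Kit was at 861, 1142, 1026 and 1434 CPM, so the histone-high cells were lowest of the 4 for both. Ctsg had another order, at 464, 550, 512 and 277 CPM. Along the histone value, Hdc was at 1051 CPM in cells with no UMI of the rule genes and 267 CPM in those at 6000 CPM or more, Mrgprb1 at 246 and 20.2 CPM, and Kit at 1422 and 728 CPM.

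Of 21 ribosome biogenesis genes, 16 were at least 1.5 times higher and 0 lower, with a median ratio of 1.63, and Nop56, a nucleolar protein gene, was at 59.6 and 22.8 CPM. Their sum was 2827 CPM in histone-high, 2740 in others scored S, 2026 in others scored G2/M and 1413 in others scored neither. Over all genes, 10.7% were at least 1.5 times higher and 11.4% at least 1.5 times lower. Of 80 nuclear genes of oxidative phosphorylation, 7 were at least 1.5 times higher and 0 lower. The share higher was not above that of all genes, but the median ratio was 1.25 against 0.943 over all genes. Of 84 ribosomal protein genes 0 were past 1.5 times either way, with a median ratio of 1.08. Of 17 cholesterol synthesis genes 0 were past it either way, with a median ratio of 0.986. Immediate early genes, which respond to stimuli within minutes and also to cell handling, were at least 1.5 times lower in 11 of 12, with a median ratio of 0.537. Fos was at 117 and 225 CPM and Zfp36, whose product destabilises cytokine RNA, at 28.1 and 61.9 CPM.

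Among the 15 lowest ratios, 4 were hemoglobin genes, from 0.0559 for Hba-a2 to 0.117 for Hbb-bt. In 13 other mast cells and 0 histone-high cells, hemoglobin gave 1% or more of UMIs, and these 13 held 89.0% of the hemoglobin UMIs of all mast cells. Without them the ratios were 0.604 for Hba-a2, 0.770 for Hba-a1, 0.795 for Hbb-bs and 0.946 for Hbb-bt. The others were Gm4847, Mrgprb1, Kdm5b, Gm14010, Mrgprb2, Tcp11l2, Entpd1, Atp6v0d2, Tmem71, Satb1 and Il13. Most of the 15 were under 10 CPM in the histone-high cells and passed the minimum through the other mast cells. Over all 7639 genes, 405 were under 10 CPM in the histone-high cells and 105 in the other mast cells. Kdm5b, a histone H3 demethylase, was at 10.7 and 46.5 CPM, a ratio of 0.229 (0.208–0.252), and Entpd1, which breaks down extracellular ATP, at 6.65 and 25.02 CPM.

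Most markers of other cell types were at similar or lower levels in the histone-high cells. The 7 macrophage markers summed to 63.3 CPM in histone-high and 67.6 CPM in the other mast cells, with medians per cell of 31.2 and 0, and the 6 fibroblast markers to 186 and 219 CPM, with medians of 164 and 190. The mast cell rule capped C1qa, C1qb and C1qc of the former and Col1a1, Col1a2, Col3a1 and Dcn of the latter in both groups. Low sums for these cell types were thus largely set by the selection. The sums were 0.906 and 0.655 CPM for T and NK cells, 0.238 and 0.420 CPM for B cells, 0.477 and 0.797 CPM for endothelial cells and 0.667 and 2.42 CPM for neutrophils. In the histone-high cells Cd79a, Tie1 and Elane were at 0. The sums for erythroid cells were 9.36 and 117 CPM, for megakaryocytes 118 and 168 CPM, and for basophils 306 and 552 CPM, which are myeloid cells close to mast cells. The part of these genes in the results was not tested.

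By tag, 78.1% (76.1–80.1) of the histone-high cells carried Cafum alone, against 50.0% of the other mast cells. No tag was called on 14.8% and 43.8%, and more than 1 tag on 6.26% and 3.97%. Of mast cells with Cafum alone 10.4% were histone-high, and of those with no tag 2.44%. The Cafum tag had a median of 3196 UMIs in histone-high and 2534 UMIs in the other mast cells. Tag UMIs and gene UMIs were counted on the same barcodes, and whether cells with no call differ in suspension or in depth was not tested.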

How the data were processed

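The authors deposited raw counts of UMIs per gene and cell barcode (1 library, 32285 genes). Per the file headers, Cell Ranger 7.0.0 wrote them. The submitters' processing notes also list STAR, R 4.1.3, Seurat 4.1.1 and mm10, with no role given. Counting of intronic reads and of strand is not given in the sources used here. The library was made with a 3′ kit, so a count follows the captured 3′ end.

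Median depths were 24063 and 11315 UMIs per cell in the 2 groups, and the groups' sums were 4.197e+07 and 3.023e+08 UMIs. UMIs were summed per group and divided by the gene UMIs (CPM, tags left out), and a gene was called where it had 10 CPM or more over all mast cells and a ratio of 1.5 or more, or its inverse. With 1 library there is no test. Phase scores used scanpy 1.11.5 on cells thinned to 6000 UMIs. Scrublet called 3245 barcodes (9.32%) at a threshold of 0.564, and they were kept. Intervals came from scipy 1.17.1, and figures from matplotlib 3.10.9, under python 3.11.15 with numpy 2.4.6. The scripts were tested on simulated data. A tag was called at 2 times its background, and Cafum at 1.4 times.

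Named genes were the 4 given markers, the 15 with the highest and the 15 with the lowest ratio outside histone, mitochondrial and ribosomal protein genes, and up to 4 of each list by level or ratio. Others named for comparison (Mcm7, Cdk4, Slbp, Hells, Ccnb2 and similar) were chosen after their values were seen. The cells and lists were chosen with earlier results of these data known. Alternatives changed the thresholds, the filters, doublets and depth, and 2 were added after seeing the data. The library of tags listed as a sample of its own was not used here. Promoters came from RefSeq (GRCm38.p6) and transcripts from GENCODE vM21.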

Additional observations from a re-analysis of the deposited data

How the results depend on the processing

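No paired analysis was possible because the comparison is between cells of 1 library, with no replicates. The histone-high share of mast cells, 6.89%, was 8.40% with a threshold of 1000 CPM, 4.71% with 3000 CPM, 8.77% with Hist1h1b alone at 500 CPM, 6.56% without called doublets, 4.41% with Cpa3 and Cma1 at 3% or more, 7.70% on thinned cells, 10.4% among cells with the Cafum tag alone and 13.3% among cells of 15000 to 30000 UMIs. The share of histone-high cells scored S, 24.2%, was 20.96% at 3000 CPM and 21.7% with Cpa3 and Cma1 at 3%. The count of replication genes at least 1.5 times higher, 53 of 61, was 12 of 14 with a minimum of 50 CPM and 81 of 89 with a minimum of 20 UMIs, and the count of all genes past 1.5 times, 1688, was 574 of 2990 and 6329 of 18080, since these settings change how many genes are tested. No alternative moved the count of mast cell genes, 27 of 63, by more than 1.5 times. For the shares, the cause of each move was not tested.

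Over 15 alternatives 104 genes were followed, and direction was checked for those past 1.5 times in the main setting. Among these, 0 values changed direction. Of 64 past 1.5 times, 57 stayed past it among cells of 15000 to 30000 UMIs, where Nme1 was at 1.36, Npm1 at 1.44, Tpi1 at 1.39, Sdf2l1 at 1.43, Ly6a at 0.724, Itgb7 at 0.677 and Ier3 at 0.763. This setting and the one without 13 hemoglobin-rich cells were chosen after seeing the data. Depth and histone value moved together, so the share depends on which depths are kept. With 1 library, no setting can show how these values vary between mice or cultures.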
